A study of Arabidopsis thaliana with 16 samples.

Results

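H3K27me3 broad peaks of *Atsdr4l-5* seedlings were compared with those of Col-0 seedlings at 1 day after imbibition (DAI). The comparison holds 4 samples, 2 of each genotype, out of 12 samples with H3K27me3 peak lists and 16 samples in the series. On chromosomes 1 to 5, each base was asked whether it lay in a peak in both libraries of 1 genotype and in neither library of the other. A stretch of chromosome 2 that carries a mitochondrial insertion was left out. The bases were then added up over 37714 annotated gene bodies.

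*Atsdr4l-5* carries a deletion in *AtSDR4L* (AT1G27461), made with CRISPR/Cas9 in the Col-0 background, and according to the study's methods it was backcrossed to Col-0 before Cas9-free progeny lines were bulked for the histone ChIP. It is thus a single allele. Col-0 is the wild-type accession. Both genotypes were sampled as whole seedlings 1 day old, on medium with 1% sucrose. The study's other samples are a separate deletion allele, *Atsdr4l-4*, at the same age, all 3 genotypes at 3 DAI, mock IgG controls, and a wild type treated with abscisic acid (ABA). Peaks were called in each library by the authors, against a common control that joined the mock IgG reads of wild type and mutants, so every list shares its background. Nothing in the labels states that the 2 replicates were separate plants or sowings. The spread between them may therefore be technical.

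H3K27me3, the trimethylation of lysine 27 of histone H3, is laid down by Polycomb Repressive Complex 2 (PRC2) and marks genes that are kept silent. In germinating seedlings it spreads over the genes of the seed programme, among them the embryo regulator *LEC1*. The B3 proteins VAL1 and VAL2 bind RY motifs and bring Polycomb complexes to such genes. AtSDR4L and its relatives (DIG1, DIG2 and DIL1 to DIL4) are nuclear proteins of the seed-to-seedling transition, and the study reported that AtSDR4L binds VAL2. The comparison addresses where the mark differs when *AtSDR4L* is disrupted. In a whole seedling, a loss of the mark in some cells and a thinner mark in all of them cannot be told apart.

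The allele was made with a pair of guide RNAs, whose target sites were read from the study's oligonucleotides and located in the reference genome. Both sites lie in the single coding exon of *AtSDR4L*. The stretch between them is printed because it defines the mutant, with the target sites in capitals; each is followed directly by its PAM, GGG for the first site and TGG for the second. It is TAIR10.1 chr1:9538830-9538933, minus strand, and it is the reference sequence, not a read of the allele.

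AtSDR4L target stretch: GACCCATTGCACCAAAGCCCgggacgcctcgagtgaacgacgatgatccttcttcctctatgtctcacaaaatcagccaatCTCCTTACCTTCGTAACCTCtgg

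The peak lists hold no read counts, so depth is unknown and cannot be weighed. The *Atsdr4l-5* lists held 6528 and 6616 peaks, and the Col-0 lists 6474 and 6553. Values for the 2 libraries of a genotype are given in the order of replicate 1 and replicate 2 throughout. Peaks covered 21.3 and 24.6 Mb in *Atsdr4l-5*, against 23.7 and 23.9 Mb in Col-0. *Atsdr4l-5* replicate 1 stood apart as the shortest of the 4. Means were 22.9 ± 2.34 Mb in *Atsdr4l-5* and 23.8 ± 0.154 Mb in Col-0 (SD, n = 2 each), a log2 ratio of -0.06 (exact permutation test, two-sided p = 1). Without *Atsdr4l-5* replicate 1 the log2 ratio was 0.04. With 2 libraries against 2 there are 6 labellings, and the smallest p that the exact test can give is 0.333. No comparison below can therefore pass a threshold of 0.05. The Jaccard index, the shared length over the joint length, was 0.800 between the *Atsdr4l-5* libraries and 0.850 between the Col-0 libraries. *Atsdr4l-5* replicate 2 was closer to both Col-0 libraries (0.845 and 0.834) than to its own replicate. *Atsdr4l-5* replicate 1 was also slightly closer to Col-0 replicate 1 (0.806) than to its own replicate, but not to Col-0 replicate 2 (0.792).

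A total of 328 kb lay in both *Atsdr4l-5* libraries and in neither Col-0 library, and 573 kb lay in both Col-0 libraries and in neither *Atsdr4l-5* library. The length only in *Atsdr4l-5* was spread over 1672 segments with a median of 76 bp, and the Col-0 length over 2911 segments with a median of 73 bp. Most segments were short and lay at or near a peak in either library of the other genotype. Segments within 200 bp of a peak of the other genotype made up 83.7% of the length only in *Atsdr4l-5* and 90.3% of the length only in Col-0. The remaining segments stood alone, 117 only in *Atsdr4l-5* and 120 only in Col-0. These lone segments came from weak peaks. Their holding peaks had a median -log10 q of 1.91 in *Atsdr4l-5* and 2.22 in Col-0, where q is the adjusted p value of the authors' peak caller and a higher -log10 q is a stronger peak. For the segments within 200 bp of a peak of the other genotype, these medians were 6.11 in *Atsdr4l-5* and 8.13 in Col-0. The median fold enrichment, the caller's ratio of ChIP to control signal over a peak, was 1.87 and 2.00 for these adjoining segments.

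Gene bodies held 58.5% of the length only in *Atsdr4l-5* and 35.9% of the length only in Col-0. The 1 kb upstream of genes held another 19.2% of the length only in *Atsdr4l-5* and 28.8% of the length only in Col-0. In whole libraries the gene-body share was 49.4 and 45.9% in *Atsdr4l-5*, against 46.2 and 46.0% in Col-0. The GC content was 35.3% over the length only in *Atsdr4l-5* and 32.5% over the length only in Col-0. Over all covered bases it was 33.6 and 32.9% in *Atsdr4l-5*, against 33.0 and 33.1% in Col-0. *Atsdr4l-5* replicate 1 had both the highest GC content and the highest gene-body share of the 4, and its part in these differences was not tested.

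At least 200 bp of the body lay only in *Atsdr4l-5* peaks for 307 genes, which is 0.814% of all genes, and only in Col-0 peaks for 318 genes, or 0.843%. Of the 10563 genes with a covered base in any of the 4 libraries, these were 2.91% and 3.01%. The median length per gene was 387 bp in the first set (range 201 to 1605 bp) and 382.5 bp in the second (200 to 2151 bp). No peak touched the body in either library of the other genotype in 91 of the 307 and in 95 of the 318 genes. The nearest gene below the limit had 199 bp in each direction. The counts rest on all 4 libraries, since a rule that asks 3 libraries is looser than one that asks 4. They were 870 only in *Atsdr4l-5* and 503 only in Col-0 without *Atsdr4l-5* replicate 1, and 658 and 1161 without *Atsdr4l-5* replicate 2. They were 663 and 887 without Col-0 replicate 1, and 591 and 648 without Col-0 replicate 2. Which direction held more genes thus changed with the *Atsdr4l-5* library left out.

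The 12 genes with the most length only in *Atsdr4l-5* were of mixed kinds, and 4 with known products are given first. *CRK42* (AT5G40380, chr5:16151522-16155215), a cysteine-rich receptor-like kinase, was covered over 3694 and 3694 bp in *Atsdr4l-5*, against 2146 and 1819 bp in Col-0. The peak spanned the whole gene in both mutant libraries and stopped within it in both wild-type libraries. *PRK3* (AT3G42880), a leucine-rich repeat kinase of the pollen receptor kinase family, had 2125 and 2232 bp in *Atsdr4l-5*, against 658 and 0 bp in Col-0. *CHX3* (AT5G22900), a cation/H+ exchanger, had 2645 and 2645 bp in *Atsdr4l-5*, against 1425 and 988 bp in Col-0. *MIOX2* (AT2G19800), a myo-inositol oxygenase, had 2297 and 1719 bp in *Atsdr4l-5*, against 1126 and 0 bp in Col-0. In all 4 genes both mutant libraries were longer than both wild-type libraries.

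Other members of this set were nearly bare in Col-0. *TOC75-IV* (AT4G09080), a relative of the import channel of the plastid outer envelope, had 1580 and 1259 bp in *Atsdr4l-5*, against 0 and 0 bp in Col-0. Its mutant peaks were weak, with a -log10 q of 1.12 and 2.33. The ankyrin repeat gene AT4G03460 had 1548 and 3219 bp in *Atsdr4l-5*, against 0 and 0 bp in Col-0. AT4G03620, annotated as myosin heavy chain-like, had 1461 and 1886 bp in *Atsdr4l-5*, against 163 and 131 bp in Col-0. The kinase gene AT5G35580 had 1728 and 2260 bp in *Atsdr4l-5*, against 374 and 283 bp in Col-0. These 3 genes and *PRK3* lie in gene-poor stretches, which are defined below by gene density alone. So does the fucosyltransferase gene AT5G28960 (2189 and 2305 bp in *Atsdr4l-5*, against 954 and 555 bp in Col-0). The remaining 3 of the 12 were the pseudogene AT3G43825, with the greatest length of all (1605 bp only in *Atsdr4l-5*), the TPR gene AT1G28020 (1410 bp) and *UBP11*, a ubiquitin-specific protease (1188 bp).

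Only 23 genes, 0.061% of all, had at least 50% of the body covered in both *Atsdr4l-5* libraries and none in either Col-0 library. The first 5 by covered length were the F-box gene AT2G42730 (1297 and 1144 bp in *Atsdr4l-5*), the LRR gene AT4G10410 (1016 and 1016 bp), the RNA-binding gene AT5G53700 (901 and 1029 bp), the kinase gene AT3G46140 (681 and 1131 bp) and AT1G78170, annotated as an E3 ubiquitin ligase (803 and 979 bp), all at 0 bp in both Col-0 libraries. The peaks over AT4G10410 had a -log10 q of 2.12 and 1.54. In Col-0, a peak ended just short of that gene's start in both libraries. The reverse pattern was met by 51 genes, 0.135% of all.

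**Figure D1:**
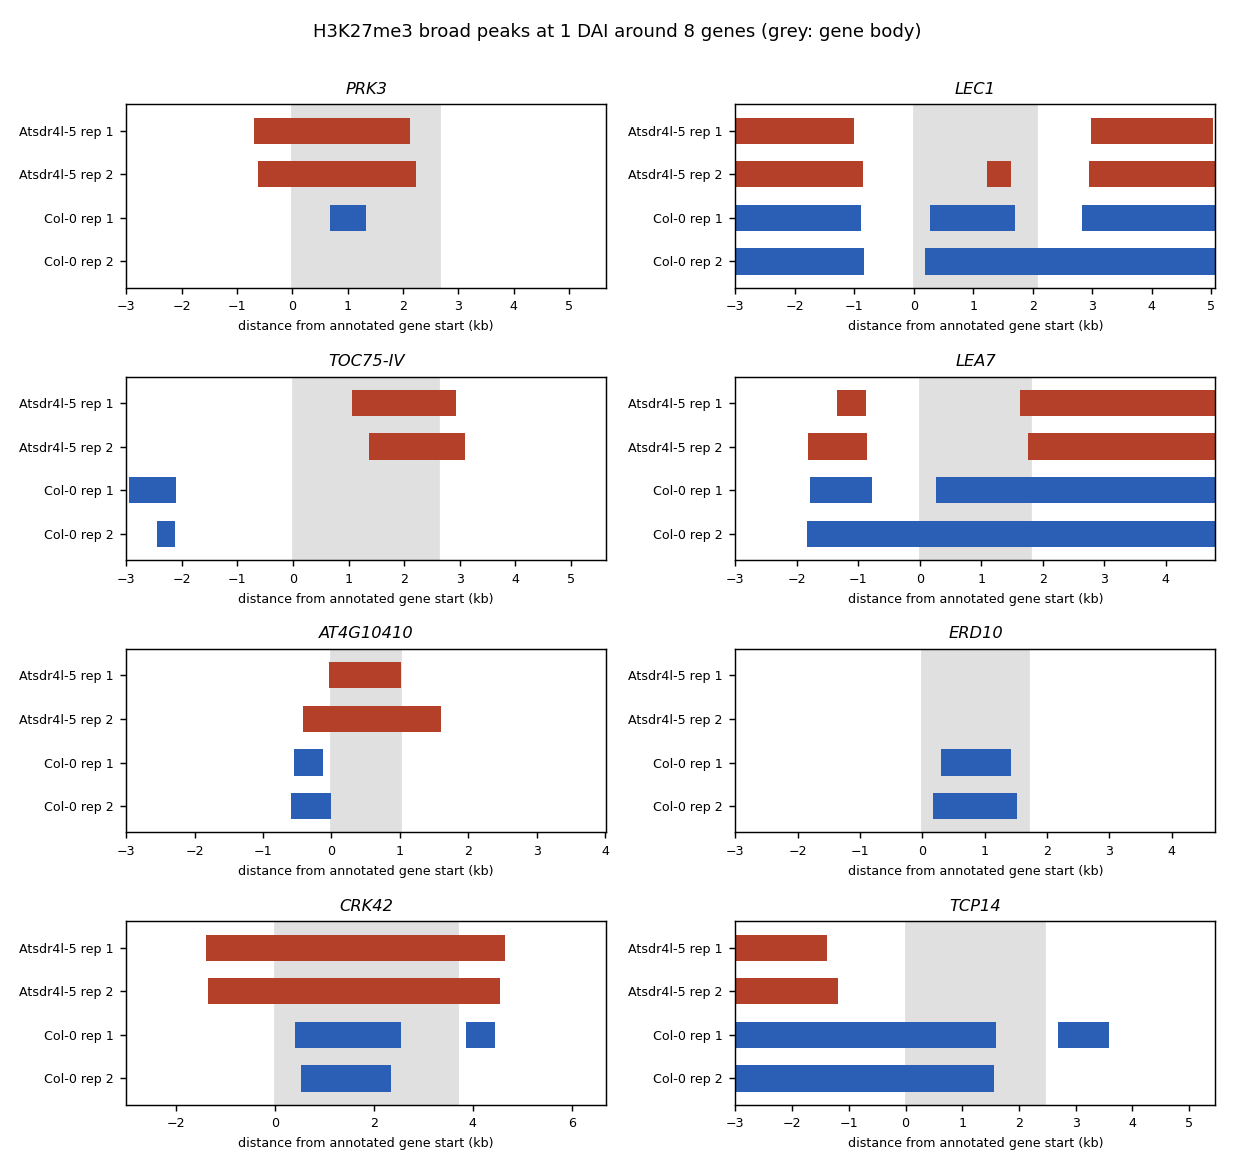
Broad peaks of the 4 libraries around 8 genes, with distance from the annotated gene start in kb on the x axis and 1 row per library (*Atsdr4l-5* in red, Col-0 in blue), the gene body in grey and peaks cut at the panel edge. In the left panels peaks cover more of the gene in both *Atsdr4l-5* libraries, and in the right panels more in both Col-0 libraries, where *ERD10* and *TCP14* have 0 bp covered in *Atsdr4l-5*.

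In the other direction, the 12 genes with the most length only in Col-0 were of mixed kinds. The greatest was AT2G16890, a UDP-glycosyltransferase gene, with 268 and 36 bp in *Atsdr4l-5*, against 2455 and 2455 bp in Col-0. *FMO GS-OX4* (AT1G62570), an S-oxygenase of aliphatic glucosinolates, had 679 and 330 bp in *Atsdr4l-5*, against 2615 and 2681 bp in Col-0. *TCP14* (AT3G47620), a TCP transcription factor that promotes growth of the embryo during germination, had 0 and 0 bp in *Atsdr4l-5*, against 1596 and 1561 bp in Col-0. In *TCP14* a peak of 7909 and 7840 bp in Col-0 ran into the gene from upstream. In *Atsdr4l-5* the peak at that place stopped more than 1 kb before the gene start. The segment here, chr3:17557601-17560353, was the longest only in Col-0, at 2753 bp.

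*LEA7* (AT1G52690), which encodes a late embryogenesis abundant protein made in drying seeds, had 178 and 43 bp in *Atsdr4l-5*, against 1554 and 1811 bp in Col-0. A long domain downstream of *LEA7* was present in all 4 libraries, with a fold enrichment of 2.45 and 2.97 in *Atsdr4l-5* and 2.72 and 2.83 in Col-0, and its near end reached into the gene body further in both Col-0 libraries. Its far end lay more than 3 kb further out in Col-0 replicate 1 than in the other 3 libraries. *NHX4* (AT3G06370), a vacuolar sodium/proton exchanger, had 288 and 1220 bp in *Atsdr4l-5*, against 3324 and 2876 bp in Col-0. *TPS12* (AT4G13280), a terpene synthase, had 353 and 334 bp in *Atsdr4l-5*, against 2101 and 2112 bp in Col-0. *SNZ* (AT2G39250), an AP2-type floral repressor, had 0 and 0 bp in *Atsdr4l-5*, against 1310 and 2143 bp in Col-0. The *SNZ* peaks were weak (-log10 q of 1.59 and 2.58 in Col-0), unlike that of *TCP14* (11.4 in Col-0 replicate 1). The others of the 12 were AT5G05840 (1641 bp only in Col-0), AT5G45880 (1435 bp), AT5G10950 (1383 bp), *WAKL10*, a wall-associated kinase-like gene (1353 bp), and *LACS2*, an acyl-CoA synthetase of cutin formation (1337 bp).

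Among the 51 genes covered in Col-0 and bare in *Atsdr4l-5*, the first 5 by covered length were AT5G10950, *SNZ*, *TCP14*, *GATA12* and AT3G15810. AT5G10950, a Tudor/PWWP/MBT-domain gene, had 2608 and 1383 bp in Col-0. *GATA12* (AT5G25830), a GATA-type transcription factor, had 1706 and 1147 bp in Col-0, within peaks with a -log10 q of 13.4 and 14.1. AT3G15810, a LURP-one-like gene, had 1024 and 1560 bp in Col-0.

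**Figure D2:**
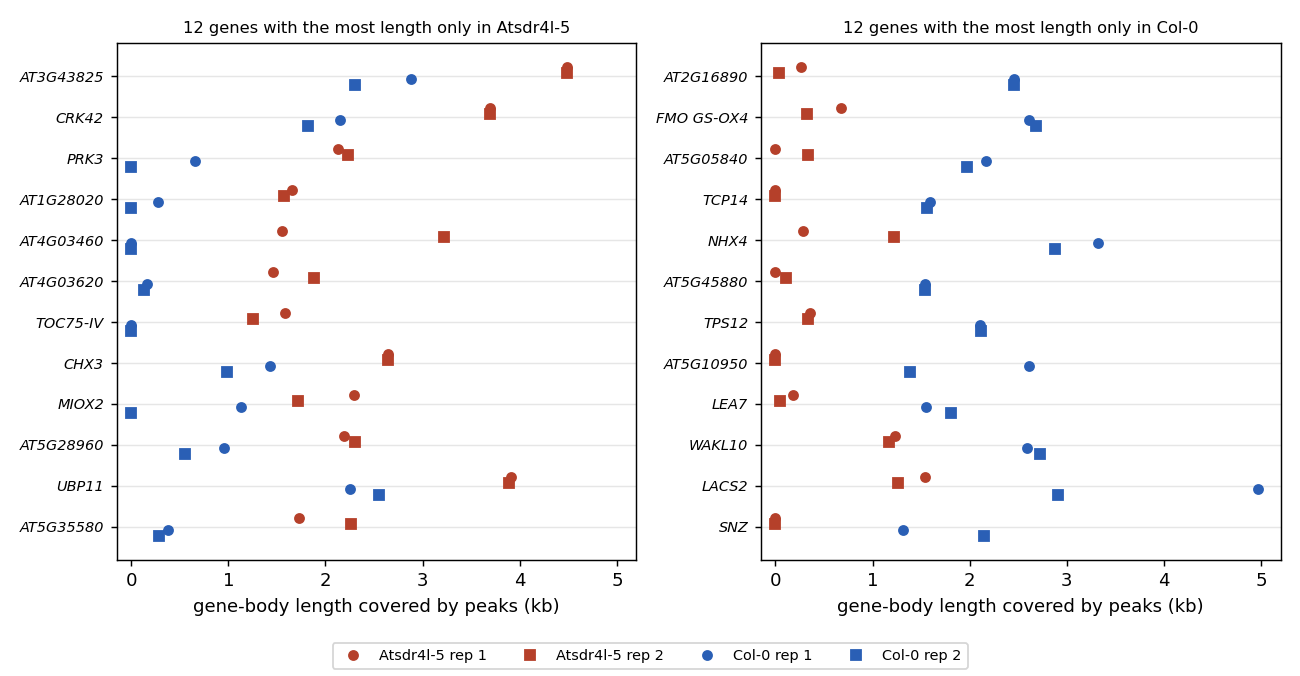
Gene-body length covered by peaks (kb, x axis) in each library at 1 DAI for the 12 genes with the most length only in *Atsdr4l-5* (left panel) and only in Col-0 (right panel), with *Atsdr4l-5* in red and Col-0 in blue, and circles and squares for replicates 1 and 2. The genotypes do not overlap in any of these genes, which were chosen for that contrast, and *TOC75-IV* and AT4G03460 on the left and *TCP14*, AT5G10950 and *SNZ* on the right stand at 0 in both libraries of the other genotype.

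Of the loci that the study lists by name, *LEC1* and *DIL3* had length only in Col-0. *LEC1* (AT1G21970), a NF-YB subunit that drives embryo development, had 0 and 406 bp in *Atsdr4l-5*, against 1433 and 1886 bp in Col-0. Its Col-0 peaks were weak, with a fold enrichment of 1.46 and 1.76 and a -log10 q of 2.84 and 4.63, and the length only in Col-0 (1027 bp) was 0 when peaks had to reach a -log10 q of 5. Stronger peaks upstream of the *LEC1* start were present in all 4 libraries.

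*DIL3* (AT5G40800), of the AtSDR4L family, had 476 and 479 bp in *Atsdr4l-5*, against 1437 and 1437 bp in Col-0. In *Atsdr4l-5* separate peaks lay over *DIL3* and its neighbour *DIL2*, while in Col-0 a single peak of 14294 and 10949 bp, with a fold enrichment of 2.97 and 3.83, held both genes. The *Atsdr4l-5* peak over *DIL3* was 4178 bp wide in both libraries, with a fold enrichment of 2.01 and 2.28. The *Atsdr4l-5* peak over *DIL2* was 4485 and 5760 bp wide, with a fold enrichment of 2.88 and 3.30. The widths and folds of the *DIL3* peak thus describe different stretches in the genotypes and were not compared. The neighbouring *DIL2* (AT5G40790) and *DIL4* (AT3G27250) were covered over their whole bodies in all 4 libraries. *ABI3*, *AtSDR4L*, *DIG1*, *DIG2*, *DIL1*, *VAL1*, *VAL2* and *ACTIN8* had 0 bp of the body covered in all 4. Some of them had peaks in the 1 kb upstream. *ACTIN8* had 0 and 0 bp there in *Atsdr4l-5*, against 463 and 566 bp in Col-0. *DIL1* had 791 and 467 bp there in *Atsdr4l-5*, against 819 and 818 bp in Col-0. Peaks also lay upstream of *DIG1* and *VAL2*, while *ABI3*, *AtSDR4L*, *DIG2* and *VAL1* had 0 bp there in all 4. A body at 0 bp holds no called peak, which is not a measure of the mark itself.

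Counts in the seed and embryo lists were of 0 to 2 genes, beside 0.814% of all genes only in *Atsdr4l-5* and 0.843% only in Col-0. The list of *LEC1*, *ABI3* and related embryo regulators had 0 of 13 genes with 200 bp only in *Atsdr4l-5* and 1 only in Col-0, and the AtSDR4L family had 0 and 1 of 7. LEA genes had 0 of 25 only in *Atsdr4l-5* and 2 only in Col-0, *LEA7* and *ERD10*. *ERD10* (AT1G20450), a dehydrin of cold and drought, had 0 and 0 bp in *Atsdr4l-5*, against 1117 and 1351 bp in Col-0, in peaks with a -log10 q of 2.91 and 3.10. Seed storage albumins and cruciferins had 0 of 10 in either direction, and so did 24 oil body genes, 6 *DOG1* family genes, 15 seed bZIP genes with *ABI4*, and 48 genes of ABA synthesis, breakdown and signalling. Seed storage genes were covered more in replicate 2 of both genotypes, with 0.359 and 4.10 kb covered in *Atsdr4l-5*, against 0.804 and 6.35 kb in Col-0. Lists with 0 in both directions also include 27 PRC2, PRC1 and VAL genes, 6 FLC and MAF genes, 53 type I MADS genes, 99 microRNA genes, 6 YABBY genes and 24 actin and tubulin genes. A body shorter than the limit of 200 bp cannot be counted in either direction. *MIR156j*, for example, is 68 bp long, lay whole in peaks of both Col-0 libraries and had 0 and 0 bp in *Atsdr4l-5*. The 0 of 99 microRNA genes is thus in part fixed by gene length. The median difference per gene was 0 bp in every list and over all genes.

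In most other lists 1 or 2 genes were called, too few to read against the 2.91% and 3.01% of all covered genes. Several lists had a single member with at least 200 bp only in Col-0 and 0 members with that length only in *Atsdr4l-5*. These were the lists of 30 floral MADS genes (*AGL14*, 385 bp only in Col-0), 12 KNOX and CUC genes (*KNAT2*, 203 bp) and 11 auxin-forming YUCCA genes (*YUC9*, 567 bp). The same held for 31 CLE peptide genes (*CLE18*, 306 bp) and 17 gibberellin oxidases (*GA2OX5*, annotated as a pseudogene, 223 bp). Of 32 glucosinolate genes, 0 reached 200 bp only in *Atsdr4l-5* and 2 only in Col-0. They were *FMO GS-OX4* and *MYB34*, a regulator of indolic glucosinolates (444 bp). Of 123 genes for LCR and other cysteine-rich peptides, 0 reached 200 bp only in *Atsdr4l-5* and 4 only in Col-0. The 4 were *LCR61* (540 bp), *SCRL8* (270 bp), *LCR25* (252 bp) and *SCRL11* (225 bp). Cytochrome P450 genes were split, with 3 of 236 in *Atsdr4l-5* (*CYP705A30*, 840 bp, *CYP86C1*, 456 bp, and *CYP96A13*, 422 bp) and 4 in Col-0 (*CYP78A7*, 1083 bp, *CYP71B30P*, 638 bp, *CYP71A19*, 482 bp, and *CYP76C2*, 454 bp). Of 71 WRKY genes, 41 of them with a covered base, 2 reached 200 bp only in *Atsdr4l-5* (*WRKY74*, 398 bp, and *WRKY45*, 281 bp). None reached it only in Col-0, and both counts are near the share over all covered genes. Below the limit, *WRKY40* had 178 bp only in Col-0. Over the whole list 679 bp lay only in *Atsdr4l-5* and 376 bp only in Col-0. Wall genes had 1 expansin (*EXPA14*, 241 bp) and *AGP31* (624 bp) in *Atsdr4l-5*, and *XTH21* (348 bp) and *XTH33* (248 bp) in Col-0.

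Annotated product names gave further groups, which were chosen after the called genes had been seen and carry no test. Genes called only in *Atsdr4l-5* had a median length of 2522 bp and those only in Col-0 1763 bp, against 1412 bp over all covered genes. A fixed limit of 200 bp is easier to reach in a long gene, and the part of gene length in the shares below was not tested. Genes matched as kinases by product name numbered 25 only in *Atsdr4l-5* and 9 only in Col-0, out of 329 with a covered base. These are 7.60% and 2.74%, against 2.91% and 3.01% over all covered genes. The match was incomplete. It missed *WAKL10*, a wall-associated kinase-like gene with 1353 bp only in Col-0, so these are not full counts of kinases. C1-domain genes numbered 10 and 3 of 124, and TIR or CC disease resistance genes numbered 6 and 2 of 85, with AT4G19530 in both counts. An example is AT1G63880, a TIR-NBS-LRR gene, with 3786 and 3827 bp in *Atsdr4l-5*, against 1699 and 940 bp in Col-0. GDSL-like lipase genes numbered 2 only in *Atsdr4l-5* and 5 only in Col-0 of 68. F-box genes numbered 8 only in *Atsdr4l-5* and 5 only in Col-0 of 402, or 1.99% and 1.24%, below the share over all covered genes in both directions. Cyclin genes numbered 0 only in *Atsdr4l-5* and 2 only in Col-0, of 6 with a covered base and 25 in all. Genes annotated as dehydrins or LEA proteins numbered 0 only in *Atsdr4l-5* and 4 only in Col-0 of 46, or 8.70%, and were *ERD10*, *LEA7*, *UNE15* and AT5G06330.

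The cysteine-rich receptor-like kinases (CRKs) are plasma membrane proteins linked to defence and oxidative stress signalling. They accounted for 11 of the 25 genes matched as kinases only in *Atsdr4l-5* and 1 of the 9 only in Col-0. The family was chosen after the called genes had been seen. It was taken by its annotated product and holds 41 genes, of which 22 had a covered base. Over all covered genes, 2.91% were called only in *Atsdr4l-5* and 3.01% only in Col-0. Of the 11, 10 are on chromosome 4, mostly in an array of neighbouring copies, but so are 37 of the 41 genes of the family. *CRK23* had 3593 and 3593 bp in *Atsdr4l-5*, against 2522 and 2092 bp in Col-0. *CRK24* had 2478 and 2232 bp in *Atsdr4l-5*, against 737 and 1396 bp in Col-0. *CRK16*, *CRK21* and *CRK22* were bare in both Col-0 libraries, and *CRK21* for example had 589 and 731 bp in *Atsdr4l-5*. *EMB1290*, annotated as CRK17, had 3940 and 1335 bp in *Atsdr4l-5*, against 1663 and 596 bp in Col-0. Its totals thus overlapped between genotypes although 621 bp lay only in *Atsdr4l-5*. The totals of *CRK14*, also called in *Atsdr4l-5*, overlapped too, with 1257 and 1109 bp in *Atsdr4l-5*, against 1175 and 0 bp in Col-0. The member called in Col-0 was AT4G28670 (219 bp only in Col-0), whose totals also overlapped, with 0 and 468 bp in *Atsdr4l-5*, against 341 and 2400 bp in Col-0. *CRK4* was covered over its whole 3174 bp in all 4 libraries. The copies resemble each other in sequence, and how reads were shared among them could not be checked from peak lists. Neighbouring genes can share a peak, so they are not independent.

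**Figure D3:**
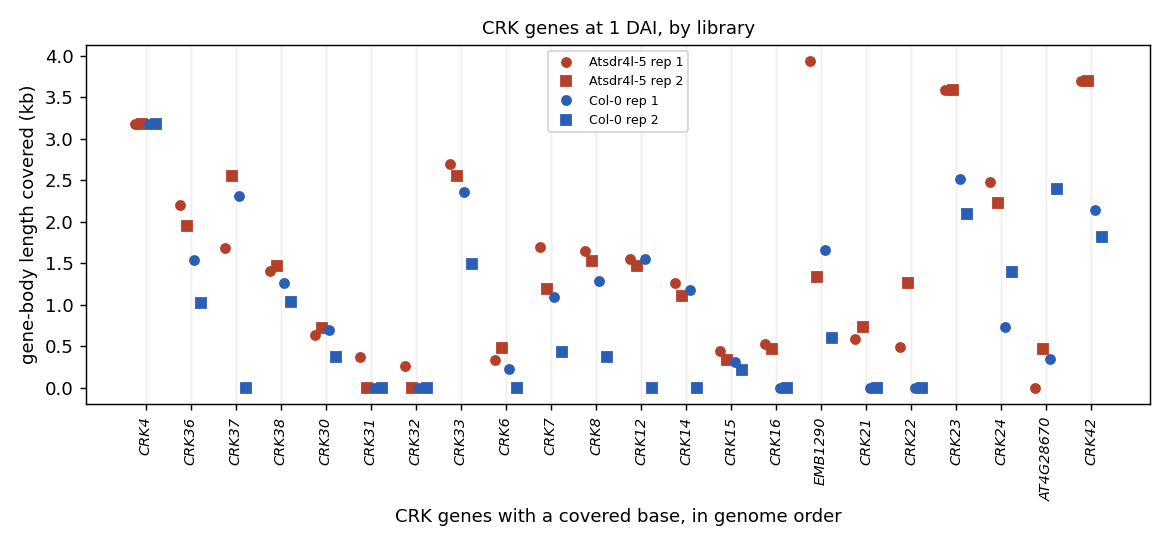
Gene-body length covered (kb, y axis) in each library at 1 DAI for the 22 CRK genes with a covered base, in genome order on the x axis, with *Atsdr4l-5* in red, Col-0 in blue, and circles and squares for replicates 1 and 2. Both *Atsdr4l-5* points lie above both Col-0 points in *CRK36*, *CRK16*, *CRK21*, *CRK22*, *CRK23*, *CRK24* and *CRK42*, among others. *CRK4* is equal in all 4 libraries, and the totals of *CRK12*, *CRK14*, *CRK30*, *CRK37*, *EMB1290* and AT4G28670 overlap between genotypes. In *CRK31* and *CRK32*, *Atsdr4l-5* replicate 2 and both Col-0 libraries stand at 0.

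The directions also differed in where they lay along the chromosomes. Gene-poor stretches were defined as 500 kb bins with under 50% of the median number of protein-coding genes, which is 19.5 Mb or 16.4% of the genome and lies mainly around the centromeres. They held 52.4 kb, or 16.0%, of the length only in *Atsdr4l-5*, and 7.98 kb, or 1.39%, of the length only in Col-0. Of the called genes, 44 of 307 only in *Atsdr4l-5* and 1 of 318 only in Col-0 lay there, against 429 of the 10563 genes with a covered base (4.06%). Pseudogenes numbered 28 of the 307 genes only in *Atsdr4l-5* (9.12%) and 6 of the 318 only in Col-0 (1.89%), against 5.88% of the genes with a covered base and 12.7% of all genes. Over whole libraries the difference was small, with 3.85 and 4.57% of the covered length in gene-poor stretches in *Atsdr4l-5*, against 3.84 and 3.30% in Col-0. These ranges barely failed to overlap (exact permutation test, two-sided p = 0.333, the smallest possible). At 3 DAI, in libraries that did not choose the segments, the shares were 3.85 and 4.57% in *Atsdr4l-5*, against 3.64 and 3.49% in Col-0, a difference of 0.645 percentage points in the same direction (exact permutation test, two-sided p = 0.333). The *Atsdr4l-4* libraries at 1 DAI had 4.72 and 4.58%. The share over the length only in *Atsdr4l-5* was 9.85% without *Atsdr4l-5* replicate 2 and 9.38% without Col-0 replicate 2. The share over the length only in Col-0 was 2.95% without *Atsdr4l-5* replicate 2, 2.15% without Col-0 replicate 1 and 3.89% without Col-0 replicate 2.

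**Figure D4:**
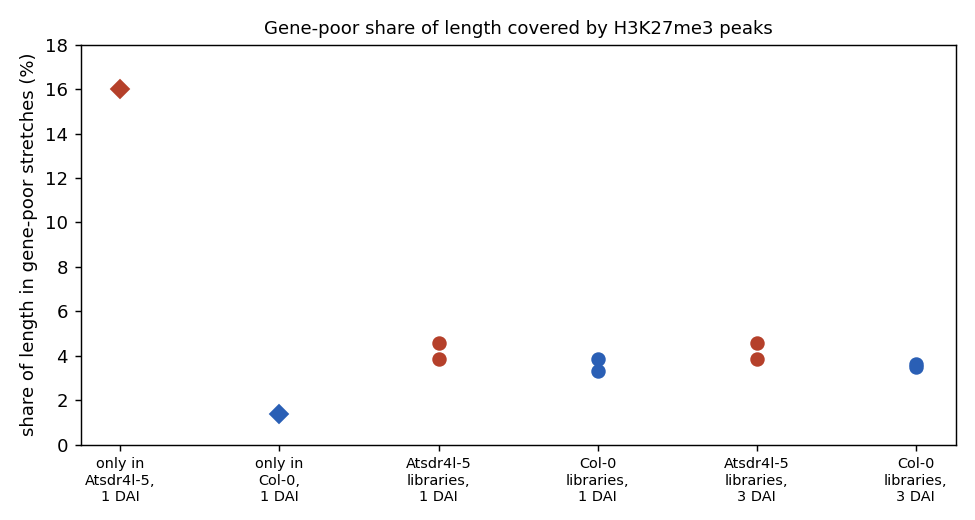
Share of peak-covered length in gene-poor stretches (%, y axis) for the length found only in 1 genotype at 1 DAI (diamonds) and for each library at 1 and 3 DAI (circles), with *Atsdr4l-5* in red and Col-0 in blue. The length only in *Atsdr4l-5* stands at 16.0% and that only in Col-0 at 1.39%, while whole libraries lie between 3.30 and 4.57%.

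Libraries of 3 DAI give a measure that the choice of segments did not use. Of the length only in Col-0 at 1 DAI, 55.3 and 54.3% was covered in *Atsdr4l-5* at 3 DAI, against 64.8 and 68.9% in Col-0 at 3 DAI. Both *Atsdr4l-5* libraries were lower than both Col-0 libraries, with means of 54.8 ± 0.700% in *Atsdr4l-5* and 66.9 ± 2.85% in Col-0 (SD, n = 2 each, exact permutation test, two-sided p = 0.333). At 3 DAI *Atsdr4l-5* peaks also covered less of the genome, 25.9 and 26.4 Mb, against 27.5 and 27.6 Mb in Col-0, and the part of this in the result was not tested. The length only in *Atsdr4l-5* at 1 DAI overlapped between genotypes at 3 DAI, with 71.3 and 74.6% in *Atsdr4l-5*, against 71.4 and 68.2% in Col-0 (exact permutation test, two-sided p = 0.667). By gene, both *Atsdr4l-5* libraries were below both Col-0 libraries at 3 DAI in 89 of the 318 genes with length only in Col-0, or 28.0%, against 11.5% of all genes with a covered base at 1 DAI. Both *Atsdr4l-5* libraries were above both Col-0 libraries in 65 of the 307 genes with length only in *Atsdr4l-5*, or 21.2%, against 5.78%. Called genes less often had their whole body covered in all 4 libraries of 3 DAI (13.7% of the 307 and 17.3% of the 318, against 48.5% of all), and such genes cannot differ, so the shares are not on an equal footing.

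**Figure D5:**
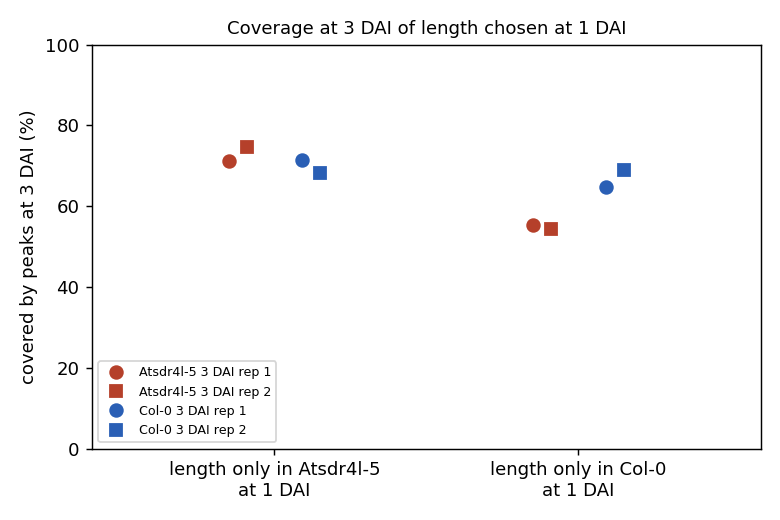
Share (%, y axis) of the length found only in *Atsdr4l-5* (left) or only in Col-0 (right) at 1 DAI that was covered by peaks in each 3 DAI library, with *Atsdr4l-5* in red, Col-0 in blue, and circles and squares for replicates 1 and 2. On the right the *Atsdr4l-5* libraries stand at 55.3 and 54.3%, below the Col-0 libraries at 64.8 and 68.9%, and on the left the genotypes overlap.

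Single genes took different courses by 3 DAI. *LEC1* was covered over 2073 and 1992 bp in *Atsdr4l-5* and 2073 and 2073 bp in Col-0 at 3 DAI, so the difference of 1 DAI was no longer there. *LEA7*, *DIL3* and AT2G16890 were covered over their whole bodies in all 4 of these libraries. *ABI3*, bare at 1 DAI, had 965 and 1143 bp in *Atsdr4l-5*, against 3729 and 3799 bp in Col-0 at 3 DAI. *NHX4* remained shorter, with 2122 and 2107 bp in *Atsdr4l-5*, against 3512 and 3755 bp in Col-0. *SCRL8* remained at 0 and 0 bp in *Atsdr4l-5*, against 270 and 270 bp in Col-0. *LCR25* had 0 and 0 bp in *Atsdr4l-5*, against 571 and 571 bp in Col-0. *TOC75-IV* remained longer, with 887 and 1192 bp in *Atsdr4l-5*, against 0 and 0 bp in Col-0. AT4G03460 had 3383 and 3395 bp in *Atsdr4l-5*, against 2143 and 2052 bp in Col-0. AT5G10950 was bare in all 4 libraries of 3 DAI, as was *MYB34*.

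The second deletion allele at 1 DAI is given beside these values without a test, since it would share the Col-0 libraries. *Atsdr4l-4* peaks covered 78.1 and 68.3% of the length only in *Atsdr4l-5*, and 49.0 and 34.7% of the length only in Col-0. *LEC1* had 298 and 298 bp in *Atsdr4l-4*. *ERD10*, *SNZ* and AT5G10950 had 0 and 0 bp in *Atsdr4l-4*, as in *Atsdr4l-5*. *DIL3* had 1437 and 636 bp, of which the first equals the value in Col-0. *TOC75-IV* had 1571 and 1179 bp and *PRK3* 2573 and 2181 bp in *Atsdr4l-4*. *CLE18*, with 0 and 0 bp in *Atsdr4l-5*, had 306 and 306 bp in *Atsdr4l-4*, the same as in both Col-0 libraries. The alleles were thus not alike at every gene.

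Promoters of the called protein-coding genes were searched for the motifs of the factors named above, over the 300 bases before each annotated gene start in TAIR10.1. The RY motif was searched as CATGCA and its reverse complement TGCATG, whose matches can overlap each other. The G-box was searched as CACGTG, which reads the same on both strands and can overlap an RY motif. An RY motif was found in 13.8% of 269 promoters of genes only in *Atsdr4l-5* and 15.4% of 285 promoters of genes only in Col-0, against 14.7% of 8332 promoters of genes with a covered base and 10.2% of all 27349. A G-box was found in 7.43% of the promoters only in *Atsdr4l-5* and 4.56% of those only in Col-0, against 5.51% of genes with a covered base and 7.11% of all. A match is a description of letters and not a bound site. The promoters of *LEC1*, *TCP14* and *ERD10* held none of these letters in this window. Promoters of 4 genes are shown, from RefSeq's TAIR10.1, because they hold these motifs, which are in capitals. *CYP705A30* (chr3:7339340-7339639, plus strand) was longer in *Atsdr4l-5* and held 3 RY motifs. Of the genes longer in Col-0, *GATA12* (chr5:9005942-9006241, minus strand) held an RY motif that overlaps a G-box, *LEA7* (chr1:19619424-19619723, plus strand) held 1 G-box and AT5G10950 (chr5:3461825-3462124, minus strand) held 2.

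CYP705A30: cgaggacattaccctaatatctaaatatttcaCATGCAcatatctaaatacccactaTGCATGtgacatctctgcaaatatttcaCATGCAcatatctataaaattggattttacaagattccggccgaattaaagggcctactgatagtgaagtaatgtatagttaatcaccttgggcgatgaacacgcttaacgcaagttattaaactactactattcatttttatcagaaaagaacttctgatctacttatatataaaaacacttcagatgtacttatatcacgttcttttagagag
GATA12: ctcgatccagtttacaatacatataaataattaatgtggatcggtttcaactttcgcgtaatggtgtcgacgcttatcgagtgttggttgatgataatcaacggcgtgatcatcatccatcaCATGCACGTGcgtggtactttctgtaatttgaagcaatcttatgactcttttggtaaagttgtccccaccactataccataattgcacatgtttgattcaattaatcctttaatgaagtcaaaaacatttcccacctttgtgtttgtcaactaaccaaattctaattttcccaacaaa
LEA7: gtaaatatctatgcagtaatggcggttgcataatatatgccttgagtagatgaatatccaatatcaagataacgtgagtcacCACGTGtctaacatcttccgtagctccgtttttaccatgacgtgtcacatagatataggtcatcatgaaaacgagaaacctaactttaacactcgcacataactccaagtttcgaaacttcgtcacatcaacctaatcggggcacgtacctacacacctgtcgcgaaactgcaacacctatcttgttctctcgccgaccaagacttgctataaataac
AT5G10950: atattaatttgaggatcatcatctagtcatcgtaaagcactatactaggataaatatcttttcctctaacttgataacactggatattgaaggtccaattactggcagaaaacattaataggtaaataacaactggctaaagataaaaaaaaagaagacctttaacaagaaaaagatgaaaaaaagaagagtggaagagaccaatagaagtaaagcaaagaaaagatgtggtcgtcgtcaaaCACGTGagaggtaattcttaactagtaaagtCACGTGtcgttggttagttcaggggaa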

How the data were processed

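Seedlings were profiled by H3K27me3 ChIP-seq. As the study's methods describe, adapters were trimmed (fastp), reads were mapped to TAIR10 (Bowtie 2), alignments of low mapping quality were dropped (Samtools) and MACS2 was run in broad mode, library by library, with the mock IgG alignments concatenated as control. Each row deposited by the authors holds the fold enrichment (a linear ratio), the -log10 of the p and q values, and a score that is 10 times the -log10 q. These were used as deposited, to filter and describe peaks, and the score was not used. All peaks end within the chromosomes of TAIR10.1, whose annotation was used. Depth is unknown, and the number of libraries limits the precision.

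Bases were counted per library, genotype and gene body (limit 200 bp) with Python 3.11.15 and numpy 2.4.6. Figures were drawn with matplotlib 3.10.9. Single values were compared by exact permutation of the 2 against 2 libraries. In a simulated test, 100% of the length planted in 1 group alone was recovered. The planted peaks had the same ends in both libraries of a group, so this checks the base arithmetic only. Peak ends that vary between replicates were not simulated. The members, gene lists and tests were chosen with earlier results of these data known. The genes named are the loci the study lists by name, the 12 genes with the most length in each direction, the first 5 with 50% or more covered in 1 genotype and none in the other, and list members with 200 bp or more. The lists matched genes by symbol or locus in the annotation. CRK genes, product groups and the gene-poor stretches were chosen after values were seen. Mock IgG and ABA samples were not used here.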

Additional observations from a re-analysis of the deposited data

Results flagged for a closer look

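Both 1 DAI and 3 DAI have an *Atsdr4l-5* and a Col-0 pair. In 2 of the 67 named genes the genotypes did not overlap at either age and their difference had opposite signs at the 2 ages. The difference between ages was not tested. *XTH33* (AT1G10550), a xyloglucan transferase gene, had 541 and 630 bp covered in *Atsdr4l-5*, against 1126 and 808 bp in Col-0 at 1 DAI, a mean difference of -381.5 bp. At 3 DAI it had 945 and 1067 bp in *Atsdr4l-5*, against 837 and 795 bp in Col-0, a mean difference of 190 bp. AT1G78170 had 803 and 979 bp in *Atsdr4l-5*, against 0 and 0 bp in Col-0 at 1 DAI, a mean difference of 891 bp. At 3 DAI it had 1136 and 1299 bp in *Atsdr4l-5*, against its whole 1324 bp in both Col-0 libraries, a mean difference of -106.5 bp.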

How the results depend on the processing

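The covered-length log2 ratio stayed below 0 under every setting except without *Atsdr4l-5* replicate 1, where it was 0.045, and ranged from -0.16 to 0.045 when single libraries were left out. Gene-body length only in *Atsdr4l-5* (192 kb) was 118 kb with a -log10 q of at least 5, 127 kb with at least 2-fold enrichment, and 368 to 568 kb without single libraries. The length only in Col-0 (206 kb) was 112 kb with at least 2-fold enrichment, 371 kb with 1 kb upstream added, and 318 to 726 kb without single libraries. Genes only in *Atsdr4l-5* (307) numbered 133 with a -log10 q of at least 5, 124 with 2-fold enrichment, 461 at 100 bp, 113 at 500 bp, and 591 to 870 without single libraries. Genes only in Col-0 (318) numbered 203, 132, 526 and 104 under the same settings, 634 with 1 kb upstream added, and 503 to 1161 without single libraries. The gene-poor share, whose alternatives were chosen after seeing the data, was 25.1% only in *Atsdr4l-5* with 2-fold enrichment and 9.38 to 16.1% without single libraries. Only in Col-0 it was 0.432% with a -log10 q of at least 5, 0.546% with 2-fold enrichment and 1.77 to 3.89% without single libraries. Rules with fewer libraries are looser by construction. Equal numbers of peaks, joined peaks and keeping the mitochondrial insertion moved no total by over 1.5 times.

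Of 57 named genes with a net length, 32 had 0 bp under the q limit and 42 under the fold limit, where *EXPA14* alone reversed (-72 bp). *LEA7*, *TCP14*, *GATA12*, *DIL3* and *CHX3* kept their direction under both. With the replicate number as a block (replicate block), the log2 ratio was -0.0595 and the lengths and counts were the same by construction. Nothing in the labels ties same-numbered libraries, and their deviations correlated at 0.051 across 10563 genes, although seed storage genes were covered more in replicate 2 of both genotypes.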
